A study of Mus musculus with 9 samples.

Results

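The 5 genes described here set how strongly the translation factor eIF2 is phosphorylated. They are the 4 eIF2 alpha kinases of the mouse, Eif2ak1, Eif2ak2, Eif2ak3 and Eif2ak4, and Ppp1r15b, which encodes a subunit of the phosphatase that removes the phosphate again. They were chosen by function and found by gene symbol, 5 of the 55359 genes in the table, and all 5 were among the 14714 genes with enough counts to be tested. Ribosome footprints, the mRNA fragments that ribosomes shield from RNase, were counted per gene in mouse preadipocytes of inguinal white adipose tissue (iWAT), a fat depot under the skin, as they became beige adipocytes, fat cells able to turn lipid into heat. There were 3 libraries each of cells without induction (day 0), at day 4 and at day 8 of differentiation. Both later groups had spent their first 2 days in a medium with dexamethasone, isobutylmethylxanthine, indomethacin, insulin, triiodothyronine and rosiglitazone, and then went on in a medium that lacked dexamethasone, isobutylmethylxanthine and indomethacin. The cells are a culture model of the tissue. Strain, genotype, sex, age and whether the replicates came from separate animals or cultures are not given in the sources here, so p-values measure the spread between these libraries only, which may be technical.

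Each kinase senses another kind of stress and phosphorylates the alpha subunit of eIF2, which carries the initiator tRNA to the ribosome. Phosphorylated eIF2 blocks its own exchange factor eIF2B, so that most mRNAs are initiated less while a few, such as the one for the transcription factor ATF4, are translated more; this is the integrated stress response. The phosphatase side consists of protein phosphatase 1 guided to eIF2 by one of a pair of related subunits, the constitutive PPP1R15B (CReP) and the stress-induced PPP1R15A (GADD34).

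Promoter windows from RefSeq (mouse build GRCm38.p6, 250 bases before to 50 bases after the annotated start) were found for 4 of the 5 members, all but Ppp1r15b, and are shown for the 2 kinases whose footprints fell over differentiation. Eif2ak2 is itself known as an interferon-induced gene, and its window held 2 matches to GAAANNGAA, the core of interferon response elements, which overlap each other, 18 and 24 bases after the start base. The run with both matches in capitals lies at chr17:78882533-78882562 on the minus strand.
Eif2ak2: tccgccggGAAAACGAAACAGAAgagaacc
Of 32851 windows of 300 bases, searched on both strands, 8.56% held at least 1 such match and 0.624% at least 2. The window of Eif2ak3 held 6 matches to CCAAT, the letters of the CCAAT box, all before the start base. They are in capitals (ATTGG where the match is on the other strand) in the stretch at chr6:70844265-70844504 on the plus strand.
Eif2ak3: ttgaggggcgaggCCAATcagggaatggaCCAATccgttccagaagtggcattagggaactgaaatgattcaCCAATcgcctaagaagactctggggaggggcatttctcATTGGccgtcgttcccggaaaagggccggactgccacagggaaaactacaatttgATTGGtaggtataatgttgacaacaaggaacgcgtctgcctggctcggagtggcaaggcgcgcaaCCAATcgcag
At least 1 CCAAT was in 37.4% of all windows and at least 6 were in 0.0791%. The window of Eif2ak1 held 1 CCAAT and 3 matches to GGGCGG, the GC box. Eif2ak4 has 2 windows, of which one held 3 GGGCGG and the other 1 TGACG, a part of the site of cAMP response elements. At least 1 GGGCGG was in 35.7% of all windows and at least 3 were in 10.7%, and TGACG was in 20.8%. TGATGNAA, the core of sites for C/EBP-ATF dimers, was in no member's window and in 3.97% of all windows. These are matches of letters, and binding was not measured.

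The libraries held 30823028 to 38994892 counts. All 7 tested fat cell markers rose at both later days against day 0. Their summed level was 213 to 277 CPM (counts scaled to library size) at day 0, 31900 to 49700 CPM at day 4 and 48300 to 52200 CPM at day 8, and Lep was at 0 at day 0. The summed markers of adipocyte precursors were at 3160 to 3260, 973 to 2190 and 702 to 1010 CPM on those days. Of these 7 markers, 3 were called higher (Cd34, Ly6a and Dlk1) and 3 lower (Pdgfrb, Thy1 and Dpp4) at day 4 against day 0, and none was higher and 3 were lower at day 8. The day 4 counts were 0 higher and 2 lower without day 0 replicate 2, 2 and 2 without day 0 replicate 3, 1 and 4 without day 4 replicate 2, and 1 and 3 with library totals or the upper quartile. Markers of other cells were at low levels: the 10 of macrophages summed to 67.2 to 129, 69.1 to 96.3 and 19.7 to 55.7 CPM, and the 6 of endothelial cells to 19.6 to 27.6, 6.03 to 20.1 and 3.42 to 7.92 CPM. Of the 9 macrophage markers tested, none was called higher, 1 was lower at day 4 and 5 were lower at day 8 against day 0. Of the 5 endothelial markers tested, none was called higher, 1 was lower at day 4 and 4 were lower at day 8. Beside these marker counts, 29.8% of all tested genes were called higher and 28.4% lower at day 4, and 34.2% and 33.5% at day 8. Without day 4 replicate 2, 4 endothelial markers were lower at day 4, and without day 0 replicate 3, 3 macrophage markers were lower at day 8. The part of these shifts in the results below was not tested. In such bulk samples, fewer cells of a type and less RNA per cell cannot be told apart. Day 4 replicate 2 and day 8 replicate 3 stood apart from the other libraries of their day, at 12.8 on the first principal component against 64.8 and 65.4 at day 4, and at 62.1 against 85.5 and 85.8 at day 8. Several results are therefore also given without these libraries, though not every value that this changes.

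Across both later days the set split. The heme-regulated kinase Eif2ak1 and the phosphatase subunit Ppp1r15b rose, the RNA-sensing kinase Eif2ak2 and the ER kinase Eif2ak3 fell, and the amino acid-sensing kinase Eif2ak4 was not called. By edgeR's quasi-likelihood test with Benjamini-Hochberg adjustment over all tested genes (called at an adjusted p under 0.05), 4 of 5 members were called at day 4 and 4 of 5 at day 8, both against day 0. Of all tested genes, 58.2% were called at day 4 (29.8% higher, 28.4% lower) and 67.7% at day 8 (34.2% higher, 33.5% lower). Most genes of these cells thus passed the same test, so the members' count is not in itself a finding about them. The same shares apply to the counts of calls in the gene lists below. The members differed in direction and size. Both comparisons use the same day 0 libraries.

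**Figure D1:**
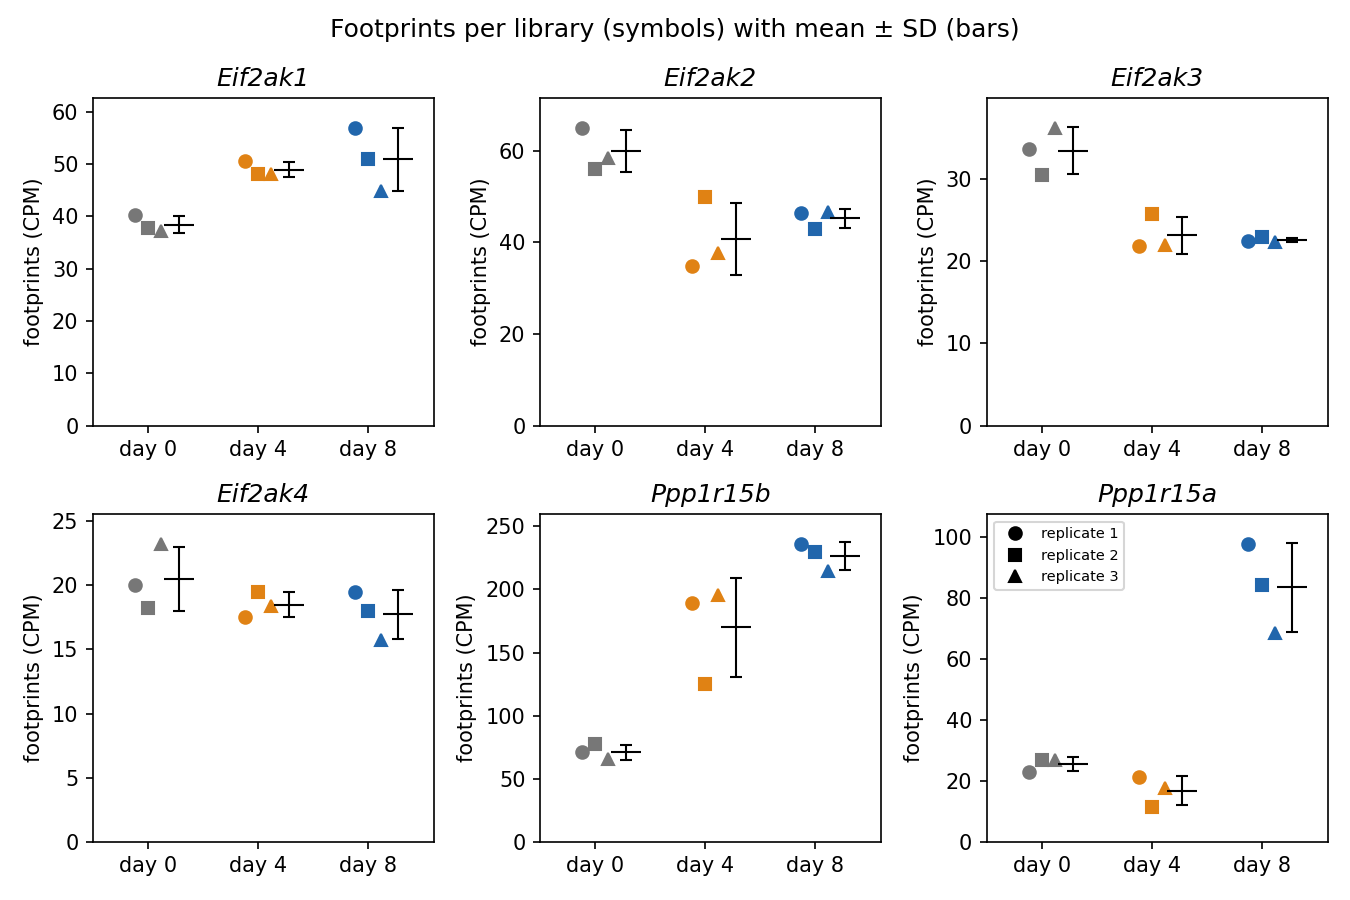
Footprints in CPM (y axis, from 0) of the 4 eIF2 alpha kinases, Ppp1r15b and its relative Ppp1r15a at day 0, day 4 and day 8 (x axis); symbols are the libraries by replicate number and bars are the mean ± SD of 3 libraries. Ppp1r15b averaged 71.2, 170.0 and 226.8 CPM on the 3 days, while Eif2ak4 stayed between 15.7 and 23.2 CPM in all 9 libraries.

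Eif2ak1 (ENSMUSG00000029613) encodes HRI, a kinase that is active when heme is short and that also receives signals of mitochondrial stress through the protein DELE1. Its footprints were at 40.3, 37.8 and 37.2 CPM in the day 0 libraries (replicates 1 to 3), at 50.5, 48.1 and 48.1 CPM at day 4 and at 56.9, 50.9 and 44.9 CPM at day 8. All libraries of both later days lay above all of day 0, and libraries did not overlap, in either direction, for 64.9% of tested genes at day 4 and 76% at day 8. The mean was 48.9 ± 1.41 CPM at day 4 and 38.4 ± 1.63 CPM at day 0 (SD, n = 3 each), a log2 fold change of 0.35 ± 0.10 (SE, adjusted p = 0.0147, edgeR). At day 8 the mean was 50.9 ± 5.99 CPM, a log2 fold change of 0.41 ± 0.10 against day 0 (adjusted p = 0.00536). The call at day 4 was lost without day 0 replicate 3 (0.33, adjusted p = 0.0529) and with 2 other scalings of the libraries, library totals (0.19, adjusted p = 0.142) and the upper quartile (0.22, adjusted p = 0.0796). The alternatives gave it adjusted p values between 0.00375 and 0.142. These scalings also moved the median of all genes to -0.17 and -0.14 at day 4, and relative to that median Eif2ak1 was 0.36 higher under both. A scaling shifts all genes nearly alike, so this value had to stay near the 0.35 of the main fit. It does not restore the lost call.

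Eif2ak2 (ENSMUSG00000024079) encodes PKR, which binds double-stranded RNA. Its levels were 65.0, 56.1 and 58.5 CPM at day 0, 34.8, 49.8 and 37.6 CPM at day 4, and 46.3, 42.9 and 46.6 CPM at day 8. Every library of the later days lay below every day 0 library, with day 4 replicate 2 the nearest to day 0. The mean fell to 40.7 ± 7.96 CPM at day 4, against 59.9 ± 4.57 CPM at day 0 (log2 fold change -0.56 ± 0.14, adjusted p = 0.00557, edgeR). Without day 4 replicate 2 and day 8 replicate 3 the log2 fold change at day 4 was -0.72. At day 8 the mean was 45.2 ± 2.05 CPM, a log2 fold change of -0.40 ± 0.13 against day 0 (adjusted p = 0.0222). That call at day 8 was lost without day 0 replicate 1 (-0.33, adjusted p = 0.089), day 8 replicate 1 (-0.41, adjusted p = 0.0551) or day 8 replicate 2 (-0.35, adjusted p = 0.0843), and the alternatives gave adjusted p values between 0.00183 and 0.089.

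Eif2ak3 (ENSMUSG00000031668) encodes PERK, a transmembrane kinase of the endoplasmic reticulum (ER) that responds to unfolded proteins. It stood at 33.6, 30.5 and 36.2 CPM at day 0, at 21.8, 25.7 and 21.9 CPM at day 4, and at 22.5, 22.9 and 22.3 CPM at day 8. The later days lay below day 0 in every library, and the day 8 libraries lay close together. The mean was 23.1 ± 2.22 CPM at day 4 and 33.4 ± 2.88 CPM at day 0, a fall of 30.7% (log2 fold change -0.53 ± 0.11, adjusted p = 0.00175, edgeR). At day 8 the mean was 22.6 ± 0.287 CPM, a fall of 32.4% against day 0 (-0.57 ± 0.11, adjusted p = 0.000889). Both calls held under all 19 alternatives, over which the log2 fold change ran between -0.68 and -0.47 at day 4 and between -0.67 and -0.50 at day 8.

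Eif2ak4 (ENSMUSG00000005102) encodes GCN2, which responds to uncharged tRNA when amino acids are short. Its levels were 20.0, 18.2 and 23.2 CPM at day 0, 17.5, 19.5 and 18.4 CPM at day 4, and 19.5, 18.0 and 15.7 CPM at day 8. The libraries of all 3 days overlapped. The log2 fold change was -0.15 ± 0.13 at day 4 (95% interval -0.43 to 0.13, adjusted p = 0.33, edgeR) and -0.21 ± 0.13 at day 8 (-0.49 to 0.07, adjusted p = 0.166), both against day 0. A change of the size seen for Eif2ak3 at day 8 (-0.57) lies outside both intervals. One of the size seen for Eif2ak2 at day 8 (-0.40) lies inside both, so a fall of that size is not excluded. With upper quartile scaling the day 8 value was -0.31 and was called (adjusted p = 0.041, the lowest over the alternatives, the highest being 0.494).

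Ppp1r15b (ENSMUSG00000046062) had the largest change among the 5 members in both comparisons with day 0. Its footprints were at 70.9, 77.3 and 65.5 CPM at day 0, at 189, 125 and 196 CPM at day 4, and at 236, 230 and 215 CPM at day 8. The lowest library of the later days, day 4 replicate 2, still lay above the highest of day 0. The mean was 170.0 ± 39.2 CPM at day 4 and 71.2 ± 5.92 CPM at day 0, 2.39-fold higher (log2 fold change 1.26 ± 0.16, adjusted p = 0.000135, edgeR). At day 8 the mean was 226.8 ± 11.1 CPM, 3.18-fold higher than at day 0 (1.67 ± 0.17, adjusted p = 1.81e-05). Among all tested genes, 72% at day 4 and 74% at day 8 had a smaller change in either direction, so the rise of Ppp1r15b is above the middle of the table but not extreme in it. Both calls held under all 19 alternatives, with log2 fold changes between 1.09 and 1.44 at day 4 and between 1.56 and 1.73 at day 8.

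**Figure D2:**
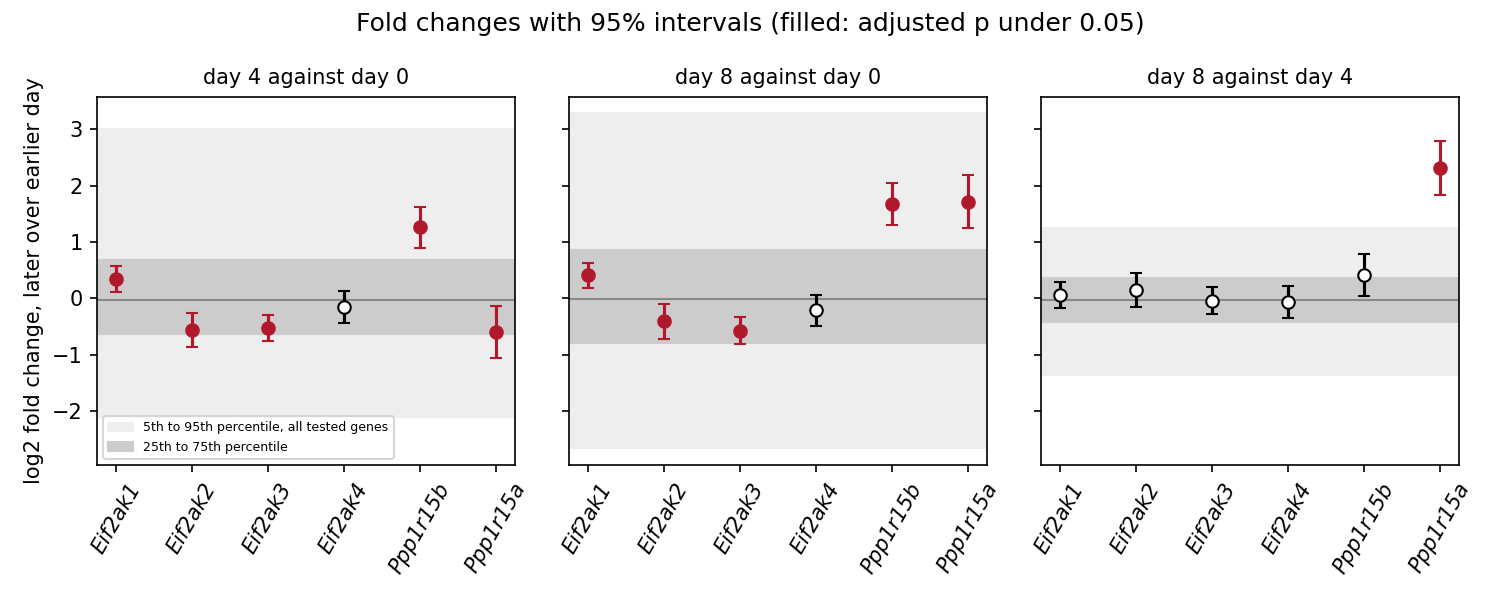
Log2 fold change (y axis, later over earlier day) of the members and Ppp1r15a (x axis) in the 3 comparisons, with 95% intervals; filled points passed an adjusted p under 0.05, and the grey bands hold the 25th to 75th and the 5th to 95th percentile of all tested genes. The 4 kinases lie inside the inner band in all 3 panels, whereas Ppp1r15b lies above it at 1.26 and 1.67 against day 0.

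Between day 8 and day 4 no member passed the test. None of the 5 was called by edgeR, against 31.8% of all tested genes (14.7% higher, 17.1% lower), and none by DESeq2 or limma-voom, while 1 of 5, Ppp1r15b, passed 0.05 before adjustment. Its 3 day 8 libraries all lay above its 3 day 4 libraries, as libraries did without overlap in one direction or the other for 45.2% of tested genes, and the log2 fold change was 0.42 ± 0.16 (95% interval 0.05 to 0.78, adjusted p = 0.0755). For the kinases the log2 fold changes were 0.06 for Eif2ak1 (-0.17 to 0.29), 0.15 for Eif2ak2 (-0.15 to 0.45), -0.04 for Eif2ak3 (-0.27 to 0.20) and -0.06 for Eif2ak4 (-0.34 to 0.22). Without day 4 replicate 2 and day 8 replicate 3, Eif2ak2 (0.30, adjusted p = 0.0443) and Ppp1r15b (0.27, adjusted p = 0.0456) were called higher, and the signs of Eif2ak3 and Eif2ak4 turned. Without day 4 replicate 2 alone, Eif2ak2 was called at 0.32 (adjusted p = 0.0325). The range of adjusted p values was 0.0325 to 0.798 over the alternatives for Eif2ak2 and 0.0219 to 0.192 for Ppp1r15b.

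Over the days, the means of Eif2ak1 and Ppp1r15b were lowest at day 0 and highest at day 8, and those of Eif2ak3 and Eif2ak4 highest at day 0 and lowest at day 8. Eif2ak2 was lowest at day 4. In each of these orders day 4 and day 8 did not pass the test against each other, and for Eif2ak4 no pair of days did.

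The balance within the set can be read inside each library, where it does not depend on how libraries are scaled. Of the summed counts of the 4 kinases, Eif2ak1 held 25.3%, 26.5% and 24% at day 0, 40.5%, 33.6% and 38.1% at day 4 and 39.2%, 37.8% and 34.7% at day 8. The share of Eif2ak2 was 39.3% ± 1.6 at day 0, 30.8% ± 3.6 at day 4 and 33.2% ± 2.4 at day 8 (SD, n = 3 each). Both shares kept the later days apart from day 0 in every library. The share of Eif2ak3 averaged 21.9% at day 0, 17.6% at day 4 and 16.6% at day 8, and that of Eif2ak4 13.4%, 14.1% and 13%. The shares are of counts, which also depend on gene length, so they show change over the days and not which kinase is the most translated. The summed level of the 4 kinases was 152 ± 8.3 CPM at day 0, 131 ± 10 CPM at day 4 and 136 ± 8.1 CPM at day 8.

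Set against the kinases, Ppp1r15b gained. Its count over the summed kinase count, relative to the mean of that ratio at day 0, was 0.949, 1.15 and 0.898 at day 0, 3.23, 1.86 and 3.31 at day 4 and 3.46, 3.62 and 3.52 at day 8. Day 4 replicate 2 had the lowest ratio of the later days, yet it lay above day 0. The ratio was highest against Eif2ak3 at day 8 (4.67 ± 0.20) and lowest against Eif2ak1 (1.87 ± 0.42 at day 4 and 2.42 ± 0.17 at day 8). These ratios rest on members already known to differ and carry no test.

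**Figure D3:**
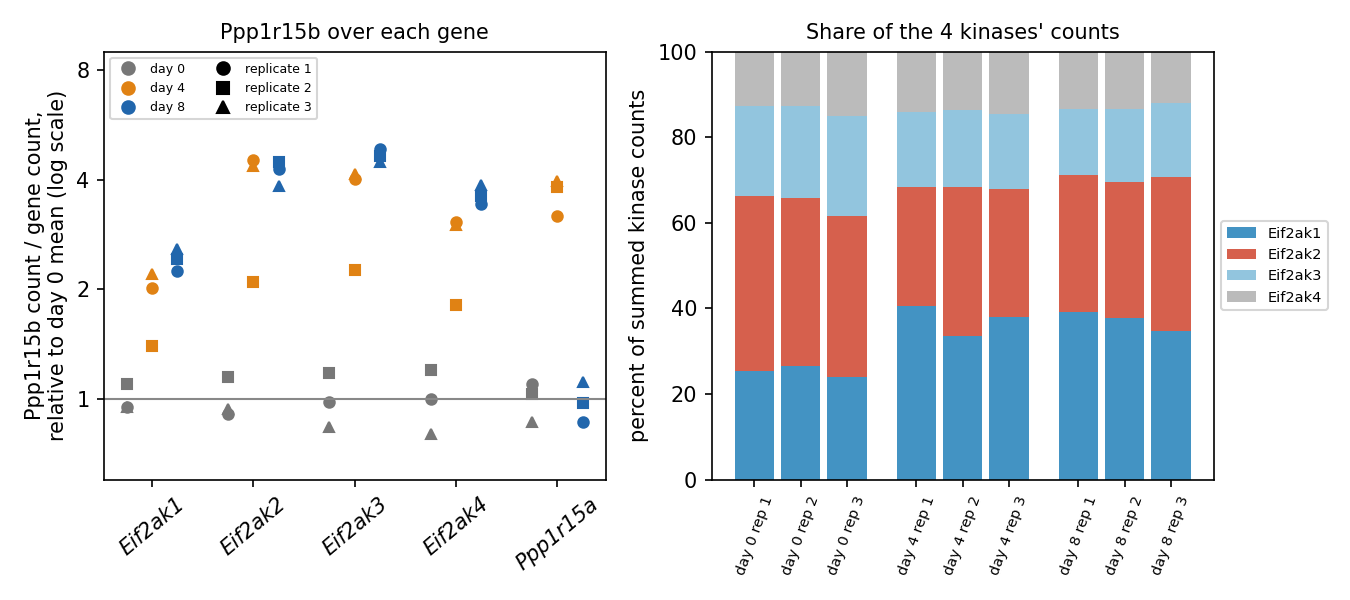
Left, the count of Ppp1r15b over that of each gene on the x axis, divided by the mean of this ratio at day 0 (y axis, log scale), per library; right, the share of each kinase in the summed counts of the 4 kinases (percent) in each library. Against every kinase the later days lie above 1, from 1.4 to 4.87, while against Ppp1r15a day 8 lies between 0.862 and 1.11.

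The stress-induced relative Ppp1r15a did not follow Ppp1r15b at day 4. It was at 22.9, 26.7 and 26.9 CPM at day 0, at 21.2, 11.6 and 17.6 CPM at day 4, and at 97.6, 84.1 and 68.6 CPM at day 8. Day 8 lay far above both other days, and day 4 lay below day 0 without overlap. The log2 fold change against day 0 was -0.60 ± 0.21 at day 4 (adjusted p = 0.0302, edgeR) and 1.71 ± 0.21 at day 8 (adjusted p = 6.32e-05). The fall at day 4 lost its call when day 0 replicate 2 (-0.57), day 0 replicate 3 (-0.56) or day 4 replicate 3 (-0.63) was left out, and was -0.39, still called, when day 4 replicate 2 was. The count ratio of Ppp1r15b to Ppp1r15a, relative to day 0, was 3.66 ± 0.42 at day 4 and 0.981 ± 0.12 at day 8 (SD, n = 3 each). Both subunits bind the catalytic subunits of protein phosphatase 1. Ppp1ca was higher at day 4 (0.62 ± 0.11) and not called at day 8 (0.16), Ppp1cb was higher at day 4 (0.32 ± 0.11) and at day 8 (0.71 ± 0.12), and Ppp1cc, at 0.713 CPM at day 4 and 1.42 CPM at day 0, was lower at day 4 (-0.99 ± 0.30). The day 4 call of Ppp1cb was lost without day 0 replicate 1, 2 or 3 or day 4 replicate 1 or 3, and with library totals (0.17) or upper quartile scaling (0.20). That of Ppp1cc was lost without day 0 replicate 2 or day 4 replicate 1. Over these 4 partners, 2 were higher and 2 lower at day 4 (median -0.14, against -0.02 over all genes), and 2 higher and none lower at day 8 (median 0.44, against -0.01). Without day 0 replicate 2, 1 was higher and none lower at day 4, and without day 0 replicate 1, 1 was higher and 2 lower.

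For the substrate and its exchange factor, calls were nearly all higher. Of 9 genes for the subunits of eIF2 and eIF2B and for eIF5, the factor that makes eIF2 hydrolyse its GTP, 8 were called higher and none lower at day 4 (median log2 fold change 0.41) and 6 higher and 1 lower at day 8 (median 0.45). The medians of all genes were -0.02 and -0.01. At day 4, 5 were higher and none lower when day 0 replicate 1 or 3 or day 4 replicate 1 or 3 was left out, 3 were higher and 1 lower with library totals (median 0.25), and 5 and 1 with the upper quartile (0.29). At day 8 the upper quartile gave 4 higher and 1 lower (0.34). Eif2s1, which encodes eIF2 alpha, the subunit the kinases phosphorylate, was at 72.0 ± 6.44 CPM at day 4 and 54.7 ± 2.76 CPM at day 0 (log2 fold change 0.40 ± 0.10, adjusted p = 0.00639, edgeR) and at 68.8 ± 3.84 CPM at day 8 (0.33 ± 0.10, adjusted p = 0.0131). It was not called at day 4 with library totals (0.24), nor at day 8 with the upper quartile (0.22) or without day 0 replicate 3 (0.29). Eif2b1 rose by 1.13 ± 0.11 at day 4 and 0.84 ± 0.11 at day 8, and Eif2b4 by 1.04 ± 0.13 and 1.37 ± 0.13. These encode the alpha and delta subunits, which belong to the part of eIF2B that binds phosphorylated eIF2. Eif5 rose by 0.71 ± 0.16 and 1.25 ± 0.16. The exception was Eif2s2, for eIF2 beta, which fell by 0.27 ± 0.09 on the log2 scale at day 8.

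Proteins that switch the kinases on or off did not move one way. Of 11 such genes, 3 were called higher and 1 lower at day 4 (median 0.03), and 3 higher and 5 lower at day 8 (median -0.05). The day 4 counts were 3 higher and 3 lower without day 4 replicate 2 (median -0.01), 2 and 0 without day 4 replicate 3, and 2 and 3 with library totals (median -0.13). Dele1, whose product activates HRI, rose to 39.1 ± 8.12 CPM at day 4, against 15.1 ± 2.33 CPM at day 0 (1.37 ± 0.16, adjusted p = 7.76e-05), and stood at 38.2 ± 1.94 CPM at day 8 (1.34 ± 0.16). Oma1, the mitochondrial protease that cleaves DELE1, was higher at day 4 (0.39 ± 0.11), though not with library totals (0.24), and not called at day 8 (-0.05). Hspa5, the ER chaperone BiP that holds PERK inactive, was not called at day 4 (-0.16 ± 0.14) and rose to 5019 CPM at day 8, against 2187 CPM at day 0 (1.20 ± 0.14, adjusted p = 5.52e-05). Hsp90ab1, a chaperone for which HRI and PKR are known as clients, fell by 0.57 ± 0.17 on the log2 scale at day 4 and by 1.32 ± 0.17 at day 8, the first of which lost its call without day 4 replicate 3 (-0.52). Gcn1, whose product is needed to activate GCN2, was not called at day 4 (0.16 ± 0.10) and fell by 0.35 ± 0.10 at day 8.

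**Figure D4:**
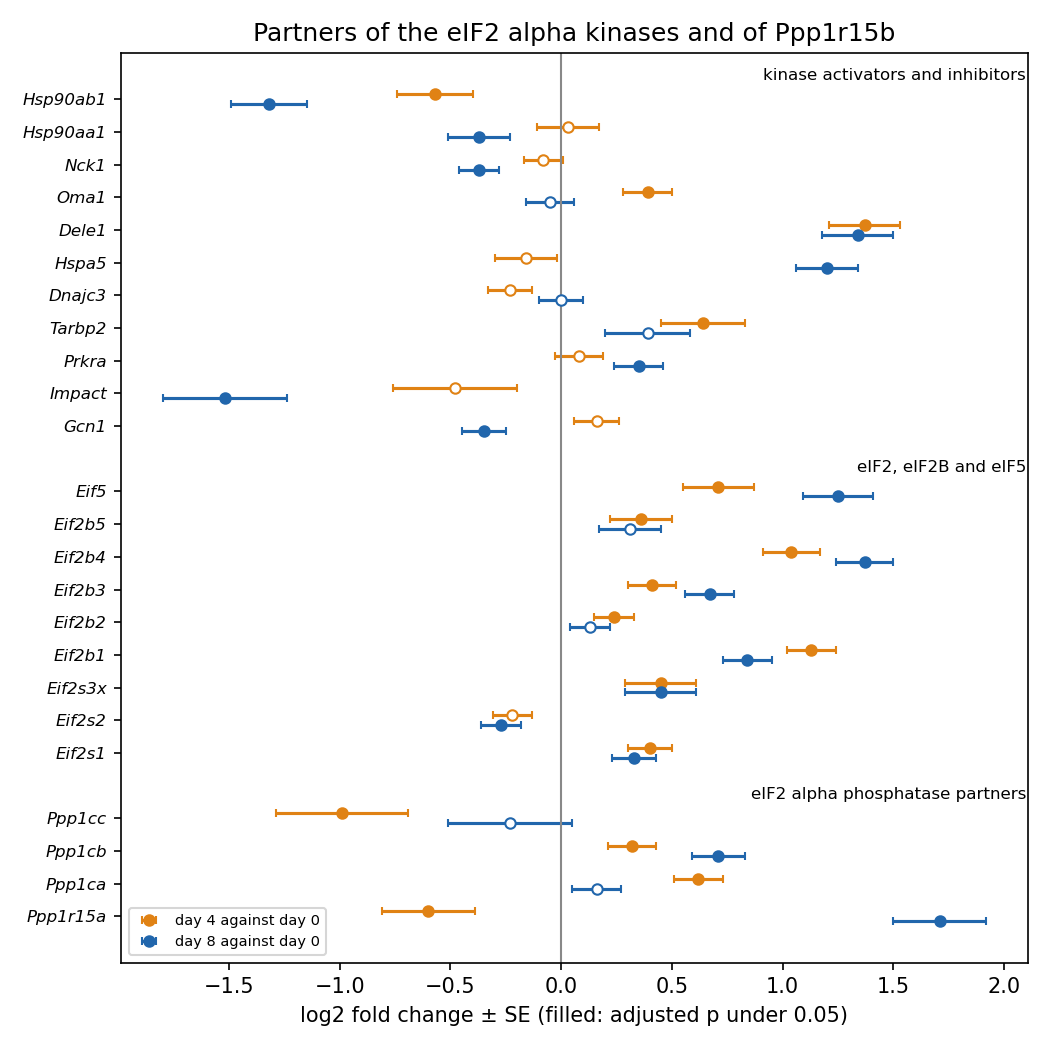
Log2 fold change ± SE against day 0 (x axis) at day 4 (orange) and day 8 (blue) of each tested gene that encodes a partner of the kinases or of Ppp1r15b (y axis); filled points passed an adjusted p under 0.05. Dele1 lies near 1.37 on both days, Hspa5 is filled at day 8 only (1.20), and of the 9 genes for eIF2, eIF2B and eIF5 all but Eif2s2 lie right of 0 on both days.

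The kinases' upstream pathways and targets were set beside them. For HRI, the 10 genes of heme synthesis and breakdown were called higher in 8 cases at day 4 and 10 at day 8, with none lower (medians 0.88 and 0.98). At day 4, 6 were higher without day 4 replicate 3 and 7 with library totals, again with none lower. Over all tested genes, 29.8% were called higher and 28.4% lower at day 4, and 34.2% and 33.5% at day 8. Their medians were -0.02 and -0.01. Alas1, the rate-limiting enzyme of heme synthesis, rose by 3.57 ± 0.17 at day 4 and 3.64 ± 0.17 at day 8. Hmox1, which breaks heme down, was not called at day 4 (0.24) and rose by 3.04 ± 0.16 at day 8.

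For PKR, 20 of 22 interferon-induced genes were tested. At day 4, 2 were higher and 11 lower (median -1.01), and at day 8, 2 were higher and 5 lower (median -0.13). Over all tested genes the medians were -0.02 and -0.01, and 58.2% and 67.7% were called. Isg15, a ubiquitin-like protein, fell by 2.06 ± 0.28 at day 4 and was not called at day 8 (-0.50), where it passed once day 4 replicate 2 was left out (-0.50). Bst2, which tethers viruses to the cell, fell by 0.75 ± 0.12 at day 4 and stood at 0.01 at day 8. The genes with the smallest adjusted p at day 8 went both ways. At days 0, 4 and 8, Oas3 averaged 0.42, 0.81 and 1.46 CPM and Rsad2 0.85, 0.46 and 6.46 CPM. Adar averaged 52.9, 28.2 and 25.6 CPM. With those 2 libraries that stood apart left out, 18 of the 20 were lower and 2 higher at day 4, and 9 lower and 3 higher at day 8. Without day 4 replicate 3, 10 were lower and 1 higher at day 4. Without day 0 replicate 1, 4 were lower and 2 higher at day 8. Between day 8 and day 4, 9 were higher and 2 lower, or 16 and 2 without day 4 replicate 2 and day 8 replicate 3. These counts were 5 and 2 without day 4 replicate 3, and 5 and 1 without day 8 replicate 1. Of all tested genes in all libraries, 14.7% were higher and 17.1% lower between day 8 and day 4. In that comparison Eif2ak2 stood at 0.15. It was 0.30 without day 4 replicate 2 and day 8 replicate 3, and 0.09 without day 4 replicate 3.

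For PERK, 16 genes of ER stress sensors and chaperones were tested. Some of them, Hspa5 included, were also counted above among the genes that switch the kinases on or off. At day 4, 2 of the 16 were higher and 5 lower (median -0.30), and at day 8, 7 were higher and 2 lower (median 0.23). As 58.2% of all tested genes were called at day 4 and 67.7% at day 8, these counts alone are no finding. The medians over all genes were -0.02 and -0.01. Without day 4 replicate 2 and day 8 replicate 3 these counts were 3 and 12 at day 4 and 9 and 2 at day 8, and with library totals or the upper quartile they were 1 and 11 at day 4. Dnajb9, an ER co-chaperone, rose by 1.95 ± 0.14 at day 4 and 2.24 ± 0.14 at day 8. Ern1, the sensor IRE1 alpha, fell by 0.74 ± 0.12 on the log2 scale at day 4 and rose by 0.61 ± 0.12 at day 8. Herpud1, of the pathway that breaks down ER proteins, fell by 0.90 ± 0.17 at day 4 and rose by 0.78 ± 0.17 at day 8. Eif2ak3 itself was lower on both days.

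Of 18 known targets of the integrated stress response, 6 were higher and 6 lower at day 4 (median 0.03) and 11 higher and 3 lower at day 8 (median 0.88). Of all tested genes, 58.2% were called at day 4 and 67.7% at day 8 (medians -0.02 and -0.01). The median at day 4 changed sign between settings, from -0.13 with library totals to 0.09 without day 0 replicate 1. Without day 4 replicate 2 and day 8 replicate 3, 7 were higher and 8 lower at day 4, and 12 and 3 at day 8. Atf4 fell by 0.92 ± 0.19 at day 4 and was not called at day 8 (0.21 ± 0.19). Ddit3, which encodes CHOP, fell by 2.09 ± 0.42 at day 4 and was not called at day 8 (0.31). Vldlr, a lipoprotein receptor, rose by 2.22 ± 0.12 at day 4 and by 1.87 ± 0.12 at day 8, and Atf3, a transcription factor, rose by 4.30 ± 0.29 at day 8. Footprint counts reflect both how much mRNA there is and how densely ribosomes occupy it, and phosphorylation of eIF2 was not measured. The counts are per gene and the feature counted is not given, so footprints outside the coding sequence may be among them.

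The genes most like each member over the 9 libraries were sought by the Pearson correlation of log2 CPM. The candidates were 8269 tested genes with a mean of at least 10 CPM. Pseudogenes, predicted genes (Gm and Rik names) and genes named only by an identifier had been left out. The 9 points share 3 days, so that differences between days carry most of each value, which is given as a description. For Ppp1r15b they were Osgepl1, Isca2 and Gpi1 (r = 0.998 each), and 1874 genes passed 0.9. For Eif2ak3 they were Snx33 (0.99), Trim3 (0.988) and Tcof1 (0.988), with 1104 genes past 0.9. For Eif2ak1 they were Grina (0.989), Rint1 (0.982) and Aup1 (0.976), with 721 past 0.9. For Eif2ak2 they were Gstt1 (0.973), Metrnl (0.972) and Slc41a2 (0.971), with 288 past 0.9. Eif2ak4 had the fewest neighbours, Washc1 (0.935), Mbd3 (0.903) and Arl6ip4 (0.893), with 2 genes past 0.9. The neighbours of Ppp1r15b changed more than it did: Isca2, a factor for iron-sulfur clusters, rose by 2.20 ± 0.22 at day 4 and 2.80 ± 0.23 at day 8, and the glycolytic enzyme gene Gpi1 by 2.40 ± 0.32 and 3.19 ± 0.33. Tcof1, needed to make ribosomal RNA, fell by 1.12 ± 0.13 and 1.14 ± 0.13 on the log2 scale.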

How the data were processed

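Ribosome footprints were measured in 9 libraries of cultured mouse cells, 3 per day, grouped by their labels. The deposited values are raw counts per gene. Per the submitters' processing notes, cutadapt, HISAT2, featureCounts and the mouse build GRCm39 were used. Their versions and the settings for strand, feature and multiply mapped reads are not given in the sources here, so reads from overlapping or antisense genes may be shared. Matched RNA levels were not analysed here.

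The filterByExpr rule with a minimum count of 10 kept 14714 genes with at least 99.95% of each library's counts. Counts were scaled by TMM and tested with edgeR 4.0.16 (quasi-likelihood, R 4.3.3), with day as the only term, all 9 libraries in the fit and Benjamini-Hochberg adjustment over all tested genes. SE was derived from the F statistic. CPM use TMM-scaled totals. Ddit3 has a second line in the table, at 0 in all libraries, which was not used. Alternatives changed the scaling, the filter, the test (DESeq2 1.42.0, limma 3.58.1 with voom), the libraries and a replicate block. The tests were checked on simulated counts in which 200 genes had been changed. For day 4 and day 8 against day 0 and day 8 against day 4, edgeR recovered 47%, 51% and 47% of 2-fold changes. Of 4-fold changes it recovered 89%, 86% and 78%. Smaller changes, such as those of the kinases, were not simulated. In the data 58.2% of tested genes were called at day 4, so scaling under such broad change was not checked.

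Members and gene lists were chosen with earlier results of these data known. All members were described. From each list, the genes with the smallest adjusted p against day 0 (up to 3 per day) could be named, plus Ppp1r15a, Atf4, Gcn1, Hspa5 and Eif2s1, and for each member its 3 nearest genes. Ddit3, Ppp1cb at day 4, Eif2s2, Cd34, Ly6a and Dlk1 were added after their values were seen. One gene that the rule names is not reported here. Gene lengths were not used, so levels are not compared between genes, and the planned shares per coding length were given as shares of counts. Promoter sequences and gene classes came from RefSeq (GRCm38.p6), and no positions were carried between builds.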

Additional observations from a re-analysis of the deposited data

How the results depend on the processing

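Over the 5 members, 3 comparisons and 19 alternatives, 267 of 285 values kept their direction and their side of the threshold, 6 lost a call, 5 gained one and 7 changed sign, all 7 of them uncalled values between day 8 and day 4. For each comparison the 19 include fits without a library of the third day, which hardly move its log2 fold changes. The tally therefore overstates how far the values were challenged. With library totals, day 4 against day 0 gave 0.19 for Eif2ak1 (not called), and day 8 against day 4 gave 0.11 for Eif2ak3, 0.08 for Eif2ak4 (both of the other sign) and 0.56 for Ppp1r15b (called, so 1 member). With the upper quartile, Eif2ak1 at day 4 was 0.22 (not called) and Eif2ak4 at day 8 was -0.31 (called). These scalings moved the median of all genes: library totals by -0.154 at day 4 against day 0 and by 0.142 at day 8 against day 4, and the upper quartile by -0.127 at day 4 and -0.107 at day 8 against day 0. Of the genes called between day 8 and day 4, 65.9% were higher with library totals and 46.2% with TMM. The cause of these changes was not tested. Without day 4 replicate 2 and day 8 replicate 3, day 8 against day 4 gave 0.30 for Eif2ak2 and 0.27 for Ppp1r15b (2 members called), 0.05 for Eif2ak3 and 0.06 for Eif2ak4.

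With each library left out in turn, Eif2ak1 at day 4 against day 0 ran between 0.33 and 0.40, and Eif2ak2 at day 8 against day 0 between -0.45 and -0.33. For day 8 against day 4 the ranges were -0.03 to 0.14 for Eif2ak1 (negative without day 8 replicate 1), 0.05 to 0.32 for Eif2ak2, -0.08 to 0.05 for Eif2ak3 (positive without day 4 replicate 2) and -0.14 to 0.02 for Eif2ak4 (positive without day 8 replicate 3) and 0.23 to 0.53 for Ppp1r15b, with 0 to 1 members called. The number of genes called between day 8 and day 4, 4676 in all libraries, ran between 2706 and 4899, lowest without day 8 replicate 1, and was 2760 without day 8 replicate 2 and 5481 without day 4 replicate 2 and day 8 replicate 3.

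A replicate block changed no member's call (Ppp1r15b at day 8 against day 0 was 1.67, adjusted p = 0.000145, edgeR) and called 8290, 9722 and 4079 genes in the 3 comparisons. Deviations of same-numbered libraries correlated between -0.2 and 0.19, and those of differently numbered ones between -0.3 and 0.31. Between day 0 and day 8, same numbers gave 0.12, 0.07 and 0.09, and different numbers -0.1 to 0. Pairing by number was thus neither shown nor excluded, and the main fit took no pairs. Shares per coding length were not run, since no lengths were at hand. Each member had at least 561 counts in every library.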
